A study of Saccharomyces cerevisiae with 8 samples.

Results

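The genes of the small ribosomal subunit proteins, named RPS in budding yeast (Saccharomyces cerevisiae), are transcribed by RNA polymerase II. They were examined here for signal of proteins that transcribe with RNA polymerase III (Pol III). The regions were those of the array named for an RPS gene: of 56 names looked for, 54 were on the array, out of 6399 features in all, and the names for RPS22B and RPS24B were not found. Each feature is called by an i and a gene's systematic name, and it stands for the stretch between that gene and the next gene on the side of higher coordinates. For the 25 genes whose systematic name ends in C the region therefore lies upstream of the RPS gene and holds its promoter, and for the 29 genes ending in W it lies downstream. No region had a second numbered feature, and all 54 genes matched the RefSeq gene table of assembly R64, which gave the symbols and the neighbouring genes. No coordinates are printed, because no label or file used here names the genome build behind the array.

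The proteins of the 40S subunit bind mRNA and hold the decoding site of the ribosome. Most of them are encoded by an A and a B copy of the gene. Their promoters, together with those of the large-subunit (RPL) genes, form a co-regulated set that is bound by Rap1, Fhl1 and Ifh1, is among the most active in growing yeast, and is turned down when the TOR kinase is inhibited. Pol III makes tRNA, 5S ribosomal RNA and other small RNAs, so that both sets supply the same product, the ribosome, and both respond to TOR. TFIIIC binds the internal promoter of a tRNA gene and places TFIIIB upstream of it, and TFIIIB recruits the polymerase.

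Chromatin immunoprecipitation was followed by hybridisation to arrays for 4 epitope-tagged proteins: the TFIIIB subunits Bdp1 and Brf1 and the TFIIIC subunit Tau95, each with a myc tag, and C160, the largest Pol III subunit, with an HA tag. Cells in exponential growth in YPD, a rich medium, were fixed untreated (0 min) or after 30 min of rapamycin, a TOR inhibitor, at 0.2 ng per µl, and the 4 proteins at 2 times give 8 arrays, 1 deposited for each. Per the labels, DNA precipitated from wild-type cells was labelled with Cy5 and that from cells lacking MAF1, the gene of the Pol III repressor, with Cy3 on the same slide. The experiments were in triplicate per the design text. Replicate values were not used here, so no value carries a replicate error, no difference could be tested, and every fold is a description of these arrays.

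The deposited values are on a log2 scale whose zero is, per the design text, the median of loci that the Pol III machinery does not target. A value is called a level here, and it is a relative brightness. Its channel and its denominator could not be settled from the labels or the files. No statement on the MAF1 deletion is therefore made. The genes that Pol III transcribes, 257 features of which 250 are of tRNA genes, had medians between 2.01 and 3.27 on the 8 arrays, and those of all 6399 features lay between -0.08 and 0.17. The Brf1 array at 30 min lacked 639 features, 5 of them RPS regions, and the other arrays lacked between 117 and 371. The Tau95 array at 30 min reached only 5.61, against 6.81 to 8.13 on the others. Of the 54 RPS regions, 46 had a value on every array and 8 lacked 1 or more, 11 values in all. Across those 46 regions the levels of any 2 arrays, also of different proteins, correlated with Pearson's r between 0.70 and 0.94, and the arrays share the same spotted DNA. The brightness of a spot was not separated from occupancy, so levels of different regions do not rank the genes, and the change or the difference between proteins at the same region is the safer readout.

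RPS regions were not a bright class for any of the 4 proteins. Before rapamycin their median level was 0.11 for Tau95, with quartiles of -0.50 and 1.00 over 54 regions. It was -0.20 for C160 (quartiles -0.58 and 0.63, 54 regions), -0.21 for Brf1 (quartiles -0.60 and 0.45, 54 regions) and -0.10 for Bdp1 (quartiles -0.71 and 0.73, 52 regions). Features outside the RPS and Pol III genes had medians of 0.00 for Tau95, -0.12 for C160, -0.05 for Brf1 and 0.01 for Bdp1. A level of 1 or more, 2-fold above the zero, was found at 10 RPS regions for Bdp1, where 28.8% of all features reached it. It was found at 4 for Brf1 (22.7% of all features), 8 for C160 (22.9%) and 14 for Tau95 (25.9%). Thus 25.9% of the RPS regions reached this level for Tau95, 14.8% for C160, 7.41% for Brf1 and 19.2% for Bdp1. Each share was at or below that of all features, which include the Pol III genes. Outside the RPS and Pol III genes the shares were 23.8% for Tau95, 20.2% for C160, 19.9% for Brf1 and 26.3% for Bdp1. Only for Tau95 was the RPS share above that. For Tau95 44.0% of the upstream RPS regions reached the level, against 25.9% of other genes' regions with a name ending in C. At 30 min a level of 1 or more was reached at 11 RPS regions for Bdp1 (29.5% of all features), 10 for Brf1 (27.8%), 8 for C160 (25.4%) and 11 for Tau95 (27.9%).

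**Figure D1:**
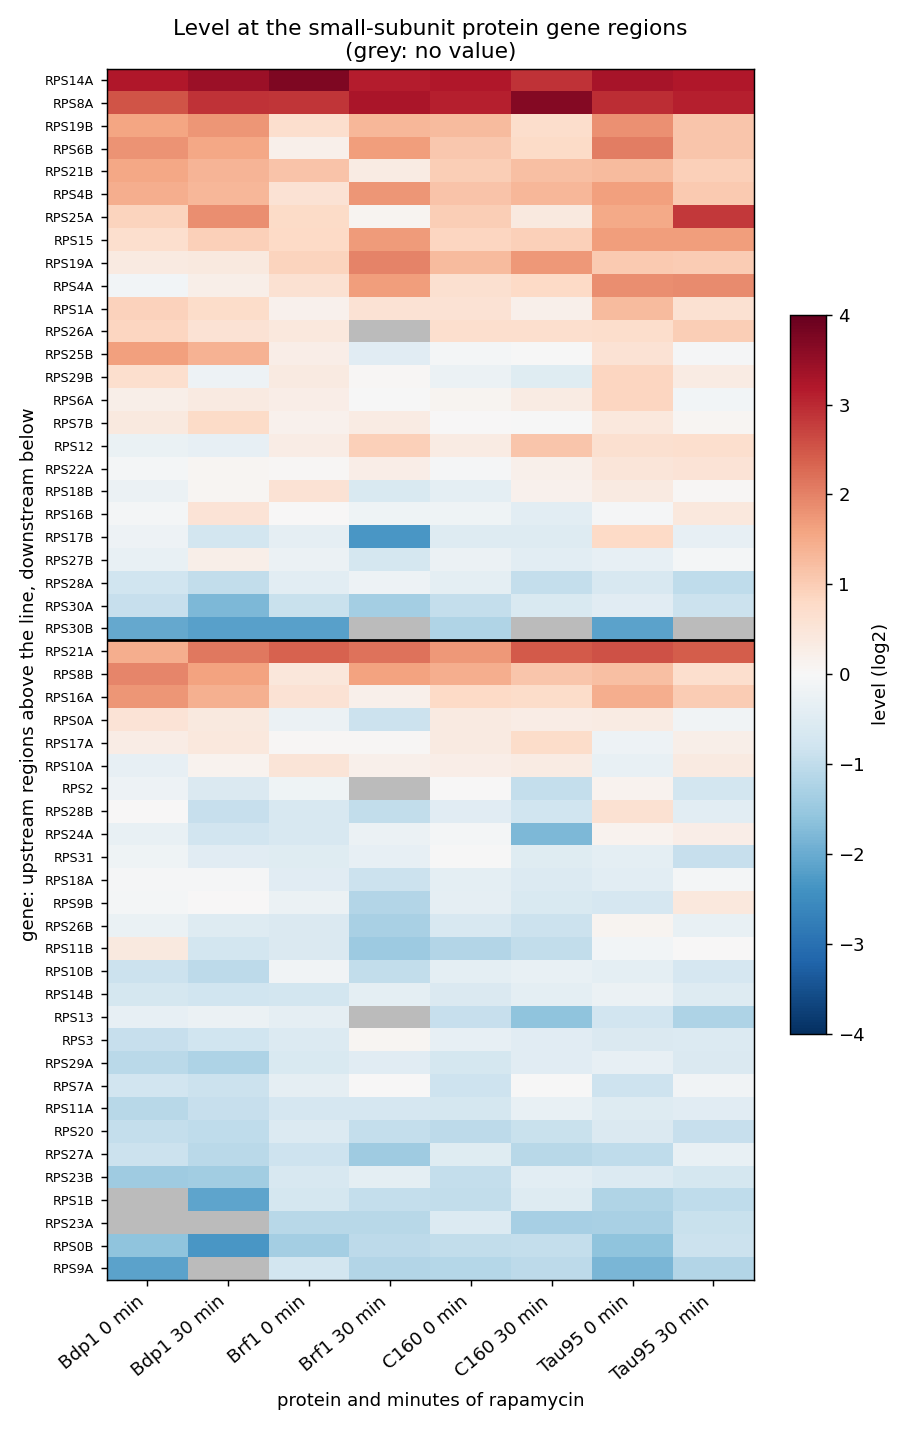
Level (log2, colour) at 53 of the 54 RPS regions (rows) on each of the 8 arrays (columns), with the 25 upstream regions above the black line and 28 downstream regions below it, each ordered by mean level at 0 min; grey marks a missing value. RPS14A and RPS8A are bright in every column, RPS21A is the brightest of the downstream regions, and most of the downstream rows are below 0.

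The regions were brighter where they lay upstream of the RPS gene. At 0 min the 25 upstream regions had medians of 0.39, 0.29, 0.34 and 0.85 in the order Bdp1, Brf1, C160, Tau95, and the downstream regions -0.32, -0.56, -0.45 and -0.38. At 30 min the upstream medians were 0.54, 0.33, 0.37 and 0.65, and the downstream ones -0.76, -0.77, -0.50 and -0.46. This order was not particular to RPS genes. Regions of other genes that do not lie next to a Pol III gene had 0.13, 0.03, -0.03 and 0.20 at 0 min where the name ends in C (2547 regions) and -0.38, -0.37, -0.42 and -0.42 where it ends in W (2483 regions). Of the 19 RPS regions at 0 or below on every array that gave a value, 16 were downstream regions. The 3 upstream ones belonged to RPS28A, RPS30A and RPS30B. How many other features were at 0 or below on every array was not counted, so the 19 is not read as a trait of RPS genes.

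**Figure D2:**
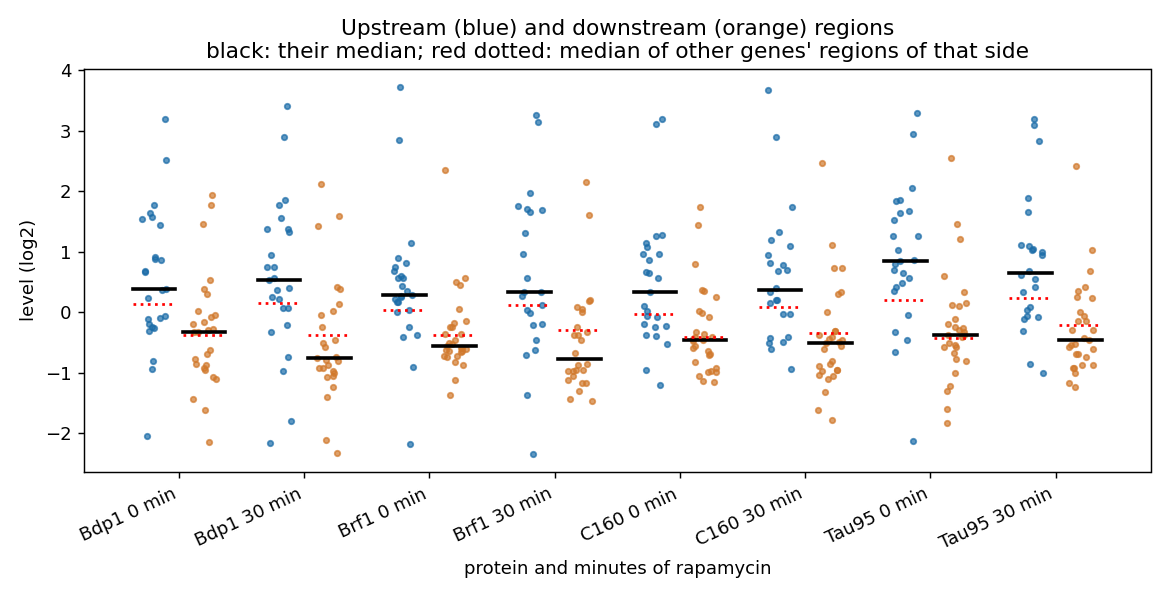
Level (log2) at upstream (blue) and downstream (orange) RPS regions on each array; points are regions, black bars their medians and red dotted bars the medians of other genes' regions on the same side. The upstream median is above the downstream one on all 8 arrays, and for Tau95 at 0 min it stands at 0.85 against 0.20 for other genes.

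The strand letter does not give what lies at the other end of a region, so the regions were also classed by gene order, a split chosen after the data were seen. In 13 the RPS gene and the next gene diverge, and the region holds the promoters of both. In 12 it holds that of the RPS gene only and in 10 that of the next gene only. In 19 the genes converge and by gene order no promoter lies between them. The convergent regions had the lowest medians at 0 min, -0.70, -0.63, -0.55 and -0.51 in the same order, and other convergent regions had -0.75, -0.69, -0.71 and -0.93. Regions with the promoter of the RPS gene only were the brightest class for Bdp1, Brf1, C160 and Tau95, at 0.63, 0.36, 0.62 and 0.95, against -0.09, -0.11, -0.15 and 0.02 at such regions of other genes. Open reading frames with a suffix to their name, such as YBL071C-B, count as next genes in this classing, as beside RPS8A, RPS10A, RPS10B, RPS25A, RPS26A and RPS28B.

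A few regions were bright with all 4 proteins. The region upstream of RPS14A (iYCR031C), which encodes a protein of the 40S platform and has the snoRNA gene SNR189 as its next gene, had levels of 3.19 and 3.41 for Bdp1 at 0 and 30 min, 3.73 and 3.15 for Brf1, 3.20 and 2.90 for C160, and 3.29 and 3.19 for Tau95. It was the brightest RPS region for each of the 4 proteins at 0 min, between the 93.7th and the 97.2nd percentile of all features. The region upstream of RPS8A (iYBL072C) had 2.53, 2.85, 3.11 and 2.95 at 0 min and 2.89, 3.26, 3.67 and 3.09 at 30 min, in the order Bdp1, Brf1, C160 and Tau95. The region downstream of RPS21A (iYKR057W), which leads to GLG1, a glycogenin gene, had 1.46, 2.36, 1.75 and 2.55 at 0 min and 2.12, 2.16, 2.46 and 2.42 at 30 min. These 3 were the only RPS regions at 1 or more on every array, and none of them has a tRNA gene as its next gene. Their changes lay between -0.58 and 0.72. The share of all features at 1 or more on every array was not counted.

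The remaining bright regions differed between proteins. For Bdp1 the region downstream of RPS8B, which leads to the heat-inducible chaperone gene SSA4, had 1.94 and that upstream of RPS6B 1.78. RPS6B encodes the 40S protein that is phosphorylated downstream of TOR. For Brf1 the same regions had 0.45 and 0.21. The region upstream of RPS21B was the fourth brightest for Brf1, at 1.14. That downstream of RPS8B was the fourth for C160, at 1.45, and that upstream of RPS6B the fourth for Tau95, at 2.05.

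At the dim end stood the region upstream of RPS30B (iYOR182C). Its levels at 0 min were -2.13 for Tau95, -1.19 for C160, -2.17 for Brf1 and -2.04 for Bdp1, and the only value at 30 min was that of Bdp1, -2.16. The region downstream of RPS9A, which encodes a protein involved in decoding fidelity, had -2.15, -0.74, -1.13 and -1.83 at 0 min. At 30 min it had -1.17, -1.05 and -1.16 for Brf1, C160 and Tau95 and no value for Bdp1. The region downstream of RPS0B had -1.61, -1.37, -0.98 and -1.60 at 0 min, in the order Bdp1, Brf1, C160 and Tau95. At 30 min it had -2.33, -1.05, -0.95 and -0.87 in the same order. The regions downstream of RPS23A for Brf1 (-1.12) and of RPS11B for C160 (-1.16) completed the lowest at 0 min. RPS23A, a gene of a decoding-site protein, had no value for Bdp1 at either time, RPS1B none for Bdp1 at 0 min, and RPS2, RPS13 and RPS26A none for Brf1 at 30 min.

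Only RPS25B had a tRNA gene as its next gene in the table. Its region (iYLR333C) had 1.64 and 1.38 for Bdp1 at 0 and 30 min, 0.25 and -0.46 for Brf1, -0.08 and -0.02 for C160, and 0.57 and -0.06 for Tau95. It was at 1 or more with Bdp1 alone, and its C160 level was near 0 at both times.

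Upstream of RPS genes Tau95 stood above the other 3 proteins at the same region before rapamycin. The measure was chosen after the data were seen. At 0 min the Tau95 level exceeded the mean of the other 3 proteins by a median of 0.47 at the 25 upstream regions (quartiles 0.04 and 0.66) and was above it at 20 of them, against 1292 of 2434 other C regions. At the downstream regions the median was 0.12 (n = 27), and at other genes' regions it was 0.04 on the C side and -0.09 on the W side. At Pol III features Tau95 was below the mean of the others by a median of -0.96. The largest excess at 0 min was upstream of RPS4A at 1.47, followed by RPS17B at 1.16 and RPS6B at 1.03. At 30 min the upstream median was 0.11 (n = 23), against 0.10 at other genes' C regions. The difference at the same region, 30 min minus 0 min, had a median of -0.30 and was below 0 at 19 of 23 upstream regions, where other C regions had a median of 0.03 and 1063 of 2243 below 0. Large-subunit genes had the same pattern, with 0.31 at 0 min and 0.10 at 30 min over 33 upstream regions. Since the zero of each array was set by the authors, these differences between proteins also carry the arrays' zero points, and centring every array on all its features gave an upstream excess of 0.0034 at 30 min.

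Rapamycin was compared with no treatment for each protein by the change, the level at 30 min minus that at 0 min. For Tau95 the RPS regions changed by a median of -0.16, a ratio of 0.897, with quartiles of -0.47 and 0.22 over 53 regions, where features outside the RPS and Pol III genes had 0.19. The change was below 0 at 31 of 53 RPS regions, or 58.5%, and at 35.0% of all features. For Bdp1 the median was -0.11 (n = 51) against 0.05, for Brf1 -0.19 (n = 49) against -0.01 and for C160 0.01 (n = 53) against 0.10. Changes below 0 were found at 56.9%, 57.1% and 47.2% of RPS regions for Bdp1, Brf1 and C160, and at 45.2%, 52.1% and 42.1% of all features. The Pol III features had medians of -0.20, -0.70, -0.32 and 0.27 for Bdp1, Brf1, C160 and Tau95, so that for Tau95 the median of the RPS regions was lower and that of the Pol III genes higher at 30 min. The Tau95 value depends on the zero of the arrays: it was -0.27 after centring on all features, -0.30 with equal spread, and 0.03 after centring on the RPL regions, which were lower to a like degree. For the median Tau95 change, no difference between RPS and RPL regions is claimed. The Tau95 array at 30 min also had a smaller spread than that at 0 min (median absolute deviation 0.783 against 0.877 outside Pol III genes), and its part in the result was not tested.

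**Figure D3:**
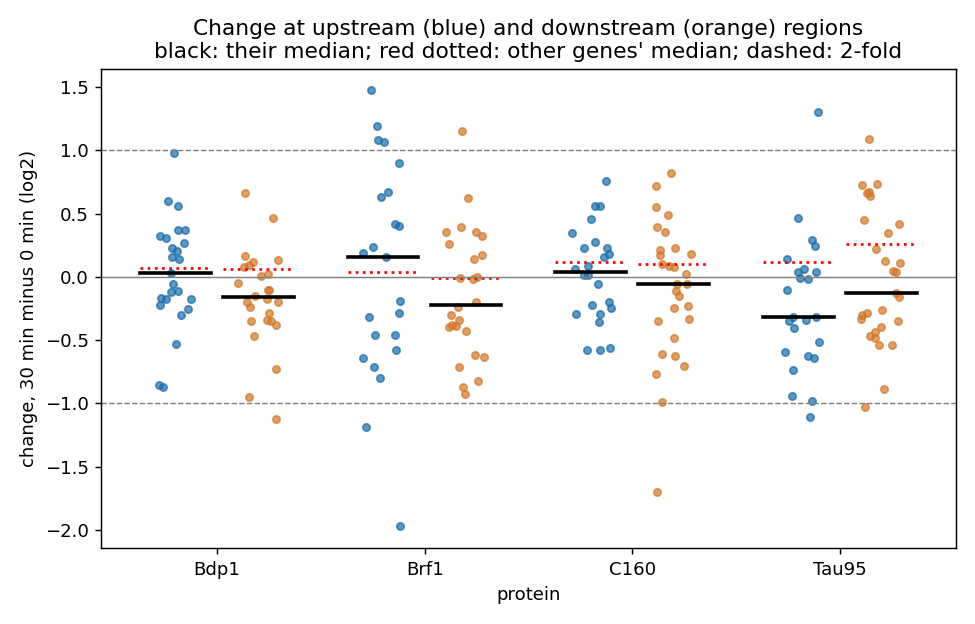
Change with rapamycin (log2, 30 min minus 0 min) for each protein at upstream (blue) and downstream (orange) RPS regions; points are regions, black bars their medians, red dotted bars the medians of other genes' regions on the same side and dashed lines a 2-fold change. For Tau95 the upstream median is -0.32 and that of other genes 0.12, and the Brf1 points spread widest, from -1.97 to 1.47.

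The median Tau95 change was below that of other genes at upstream and at downstream regions. The upstream regions had a median change of -0.32 with 16 of 24 below 0, and other C regions had 0.12 with 41.0% below 0. The downstream regions had -0.13 with 15 of 29 below 0, and other W regions had 0.26 with 30.5% below 0. The upstream Tau95 level was still above that of other C regions at 30 min, 0.65 against 0.24. Sorted by gene order, the median was -0.17 at divergent regions (n = 12), -0.33 at those with the RPS promoter only (n = 12), -0.35 at those with the next gene's promoter only (n = 10) and 0.11 at convergent ones (n = 19). Other genes had 0.09, 0.15, 0.11 and 0.37 in these classes. RPS regions were thus lower than other genes' regions of the same class by -0.25, -0.48, -0.46 and -0.26. With the arrays brought to equal spread these differences were -0.17, -0.47, -0.47 and -0.19.

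**Figure D4:**
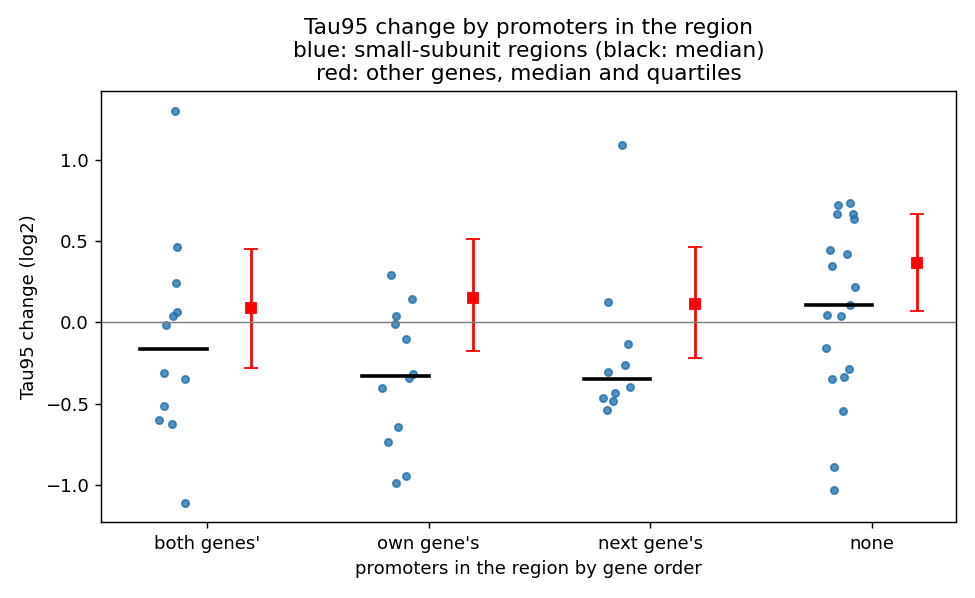
Tau95 change (log2) at RPS regions by the promoters that gene order places in the region: blue points are regions, black bars their medians, red squares and bars the median and quartiles of other genes' regions. The RPS medians are -0.17, -0.33, -0.35 and 0.11, each below the red square beside it.

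The single Tau95 changes were mostly under 2-fold. A level lower by 2-fold or more was found at 2 RPS regions, where 1.81% of all features had one, and a higher one at 2, against 6.87%. The balance turned on the zero point: 5 were lower and 1 higher after centring on all features, 4 and 1 with equal spread, and 0 were lower after centring on RPL regions. The shares of all features were not recomputed on these scales, so these counts have no matching background. Upstream of RPS17B (iYDR447C), where the promoter is shared with ADA2, a gene of the SAGA histone acetyltransferase complex, Tau95 went from 0.79 to -0.32, a change of -1.11. Downstream of RPS28B, a gene known for controlling the decay of its own mRNA, it went from 0.60 to -0.43, a change of -1.03. Both copies of RPS6 followed, with RPS6A from 0.87 to -0.12 (-0.98) and RPS6B from 2.05 to 1.11 (-0.94).

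At the other end was RPS25A, whose product is needed for initiation at certain internal ribosome entry sites, with Tau95 from 1.53 to 2.83, a change of 1.30. The next genes on that side are open reading frames of a Ty1 retrotransposon. Its Bdp1 level was also higher at 30 min, 1.87 against 0.88, while Brf1 went from 0.76 to 0.11 and C160 from 0.97 to 0.40. Downstream of RPS9B, where the next gene is RPL21A, Tau95 went from -0.68 to 0.41, a change of 1.09, and Brf1 from -0.24 to -1.17. RPS0B (0.74) and RPS27A (0.72) were next, and both regions were below 0 at either time.

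The promoter side of the W genes is not among the 54 regions, but it can be read from the feature named for the neighbour on the lower side. Such a region was found for 27 W genes, and for 17 C genes the region on the far, downstream side could be read in the same way. At the promoter side of the 27 W genes the Tau95 level had a median of 1.08 at 0 min and 0.42 at 30 min. The median change there was -0.41 (quartiles -0.83 and 0.12), it was below 0 at 19 of 27 (35.0% of all features), lower by 2-fold or more at 4 (1.81%) and higher by 2-fold at 1 (6.87%). Downstream of the same genes it was -0.13, with 14 of 27 below 0. In the 17 C genes the medians were closer, -0.17 on the promoter side (10 of 16 below 0) and -0.13 downstream (11 of 17 below 0). These 17 are only part of the 25 C genes, and over all 25 upstream regions the median change was -0.32 (n = 24). Among 4129 other genes the change was 0.11 on the promoter side and 0.28 downstream, so there too the promoter side was the lower. For Bdp1, Brf1 and C160 the median changes at the promoter side of these W genes were 0.02, 0.04 and 0.10. Upstream of RPS27A Tau95 went from 1.14 to -0.37, of RPS8B from 2.31 to 0.97 and of RPS26B from 3.08 to 1.91. Upstream of RPS11A it went the other way, from -1.45 to -0.35, the 1 region higher by 2-fold. The feature read there is iYDR023W, and that of RPS11A itself is iYDR025W. Whether another array feature lies between them was not checked, so iYDR023W may not hold the RPS11A promoter. A promoter-side region can also be the promoter of the neighbour, as upstream of RPS16A, where RPL13B diverges and Tau95 went from 2.37 to 1.49.

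Over the 44 RPS genes read on both sides, Tau95 at 0 min was higher on the promoter side by a median of 1.10 (quartiles 0.18 and 1.61) and higher there in 33 of 44, against 2708 of 3978 other genes. The genes are not all separate pairs, since the region between RPS14B and RPS22A is the downstream side of both. At 30 min the median was 0.53 (n = 43), and the promoter side was higher in 34 of 43, against 2597 of 3946. Among the other genes these medians were 0.62 and 0.45. For Bdp1, Brf1 and C160 the promoter side was higher by 0.61, 0.56 and 0.57 at 0 min, against 0.51, 0.44 and 0.39 in other genes, and by 0.80, 0.64 and 0.51 at 30 min. The median gap for Tau95 was thus narrower at 30 min, while the share of RPS genes with the higher promoter side was not lower. Some genes ran the other way for all 4 proteins at 0 min, among them RPS12 and RPS21A. The product of RPS12 sits in the beak of the 40S subunit. Its downstream side stood at 3.25 for Tau95, 4.41 for C160, 3.66 for Brf1 and 3.42 for Bdp1, and its promoter side at 0.65, 0.34, 0.29 and -0.26. In the same order RPS21A had 2.55, 1.75, 2.36 and 1.46 downstream and -0.23, -0.75, -0.63 and -1.62 on the promoter side.

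**Figure D5:**
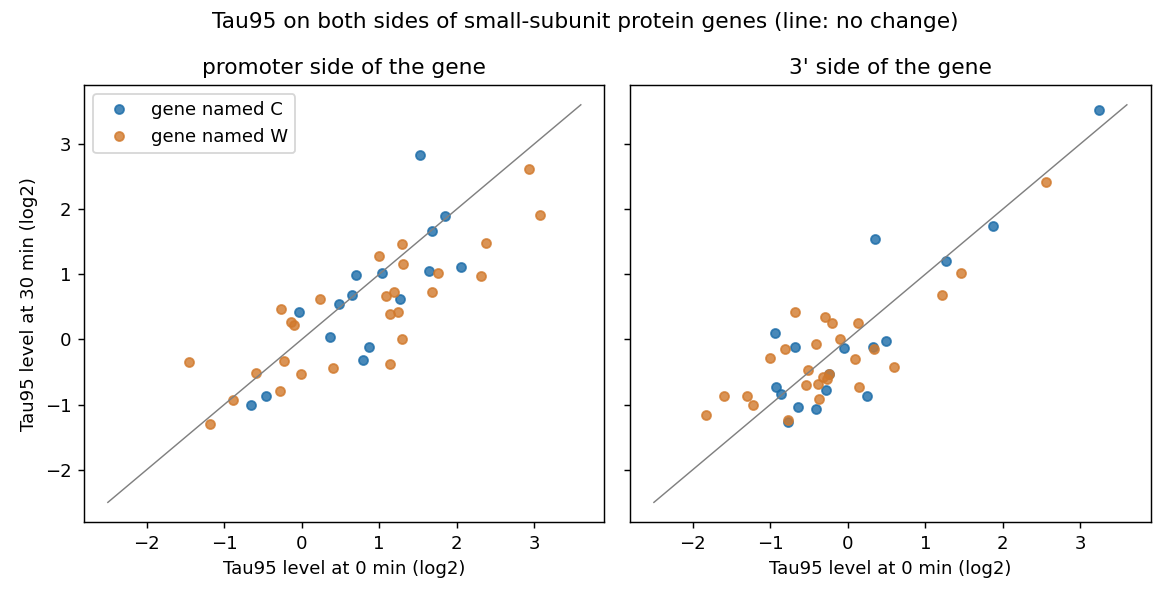
Tau95 level (log2) at 30 min against 0 min on the promoter side (left) and the 3' side (right) of the RPS genes that could be read on both sides, in blue for genes named C and orange for genes named W; the grey line marks no change. On the promoter side 19 of 27 W genes and 10 of 16 C genes lie under the line, and on the 3' side 14 of 27 and 11 of 17.

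For Brf1 the RPS regions went both ways. A level higher by 2-fold or more was found at 5 regions, where 5.28% of all features had one, and a lower one at 2, against 7.10%. The 5 were RPS6B (0.21 to 1.69, a change of 1.47), RPS4B (0.57 to 1.76, 1.19), RPS8B (0.45 to 1.60, 1.15), RPS19A (0.90 to 1.98, 1.08) and RPS4A (0.60 to 1.66, 1.06). RPS19 protein is required for the maturation of the 40S subunit. Of these, 4 are upstream regions, and RPS8B is the downstream one. Upstream of RPS17B Brf1 went from -0.37 to -2.34, a change of -1.97, and upstream of RPS18B from 0.56 to -0.62, a change of -1.19. Downstream of RPS9B (-0.93) and RPS11B (-0.87) the changes were smaller. The upstream regions had a median change of 0.16 (n = 23) and the downstream ones -0.22 (n = 26), with 0.04 and -0.01 in other genes. These values rest on the Brf1 array at 30 min, which lacked 639 features and had a wider spread than that at 0 min (median absolute deviation 0.855 against 0.676 outside Pol III genes), and the part of either in the result was not tested. With equal spread the upstream median was -0.28, and the number higher by 2-fold was 1 in place of 5, so no direction for Brf1 can be read from them.

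For Bdp1 only 1 RPS region passed 2-fold downward, where 2.72% of all features did, and 0 upward, against 0.777%. It lies downstream of RPS11B, toward REB1, a gene of a general regulatory factor, and went from 0.39 to -0.74, a change of -1.13. RPS28B (-0.95), RPS29B (-0.87) and RPS30A (-0.85) were the next lowest and RPS25A (0.98), RPS21A (0.66), RPS16B (0.60) and RPS27B (0.56) the highest.

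For C160 the RPS regions stayed close to their level before treatment, with quartiles of -0.30 and 0.23. The region downstream of RPS24A was lower by 2-fold or more, where 2.17% of all features were, and 0 regions were higher by as much, against 3.36%. It went from -0.08 to -1.78, a change of -1.70, while the other 3 proteins changed there by -0.47, 0.40 and 0.12 for Bdp1, Brf1 and Tau95. RPS2, whose product lies at the mRNA entry, followed with -0.99, RPS23A with -0.77 and RPS13 with -0.71. The highest changes were those of RPS7A (0.82), RPS12 (0.76), RPS21A (0.72) and RPS8A (0.56). The C160 change was thus between -1 and 1 at 52 of the 53 regions with a change.

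The A and B copies of a gene encode the same or nearly the same protein but have different neighbours, and 22 such pairs had a region for each copy. In 10 pairs both names end in the same letter, and their mean levels over the 4 proteins at 0 min differed by a median of 0.47. In the other 12, where a promoter region is set beside a downstream region, they differed by a median of 0.98, and the upstream copy was the brighter in 8. The RPS14 pair alone was apart by more than 2, with 3.35 for RPS14A and -0.56 for RPS14B, whose downstream region converges with RPS22A. RPS4A and RPS4B, both upstream, had 0.75 and 1.20, and their Brf1 changes were 1.06 and 1.19. RPS6A and RPS6B, also both upstream, had nearly equal Tau95 changes of -0.98 and -0.94 but Brf1 changes of -0.29 and 1.47. Both copies were lower at 30 min in 6 of 21 pairs for Tau95, 3 of 21 for C160, 9 of 20 for Brf1 and 5 of 19 for Bdp1, counts from which nothing is read. RPS17A and RPS17B, by contrast, had Tau95 changes of 0.45 and -1.11.

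Several RPS regions lie between genes for ribosomal proteins. The divergent promoter of RPS15, needed for nuclear export of the pre-40S particle, and RPP2A, a stalk protein gene, had 1.68 for Tau95 at 0 min and 1.66 at 30 min. That of RPS22A and RPL39 had 0.49 and 0.55, and that of RPS16B and RPL13A -0.04 and 0.43. None of these 3 was lower by 2-fold for Tau95.

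The other ribosomal protein genes and the regulators of both sets were read for comparison. The 69 RPL regions had median changes of -0.02 for Bdp1 (n = 64), -0.0025 for Brf1 (n = 65), -0.05 for C160 (n = 67) and -0.22 for Tau95 (n = 68). For Tau95, 1 was higher by 2-fold or more, where 6.87% of all features were, and 2 were lower, against 1.81%. The 33 upstream RPL regions had -0.33 for Tau95, with 22 below 0, close to the RPS value. Of 18 regulator genes listed, among them RAP1, FHL1, IFH1, SFP1 and SCH9, 15 had a value. Of their regions 1 of 15 was higher by 2-fold or more for Brf1, where 5.28% of all features were. For Bdp1, C160 and Tau95 0 were higher, against 0.777%, 3.36% and 6.87%. Lower by as much were 2 of 15 for Bdp1 (2.72% of all features) and 1 of 15 for Brf1 (7.10%). For C160 and Tau95 0 of 16 were lower (2.17% and 1.81%). The regions are few, and nothing on the regulators is read from these counts. The 1 higher was the region upstream of MAF1 for Brf1 (1.71), and the lower ones were CBF1 (-1.33) and TOR2 (-1.02) for Bdp1 and SFP1 (-1.11) for Brf1. The region downstream of RAP1 changed by -0.02, -0.09, 0.17 and -0.04 for Bdp1, Brf1, C160 and Tau95.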

How the data were processed

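Pol III factor binding was measured by chromatin immunoprecipitation on 2-channel arrays of yeast, with 1 deposited array for each of 4 proteins and 2 times. The deposited values are log2 values per feature. Per the labels' design text, the authors ran triplicates and scaled enrichment ratios so that untargeted loci had a median of 1. The log base was read from the values. Background correction, spot filters, the pooling of replicates and the platform's build are stated in no label or header used here. No array was rescaled for the main values. Medians, quartiles and counts past 2-fold (1 on the log2 scale) were computed with Python 3.11.15, pandas 2.3.3 and numpy 2.4.6, and the functions were checked on simulated data. With 1 array per group no test was run. Of 5588 features named for open reading frames, 5315 matched the RefSeq table by locus tag. Strand was read from the last letter of the locus tag and neighbours from gene order. Missing values were left out.

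The members and lists were chosen with earlier results of these data known. Genes are named by rule: the 4 lowest and 4 highest changes per protein, all changes of 2-fold or more, the 4 highest and 3 lowest levels per protein at 0 min, regions next to a tRNA gene, paralogue pairs 2 or more apart, and regions with missing values. The split by gene order into 4 classes, Tau95 minus the mean of the other 3 proteins, the comparison of both sides without regions next to Pol III genes and its split by strand were chosen after the data were seen. So was the tolerance: with no replicate spread, a median that moved by under 0.1 on the log2 scale was counted as unmoved. Paralogue pairs other than RPS14, shared promoters, the promoter side of W genes, and RPS12 and RPS21A as genes brighter downstream were chosen after their values were seen. A planned search of promoter motifs was not run, since no sequence was used here. Values of 1 RPS gene and of 1 neighbouring gene are not reported here by name, and the counts and medians include the regions.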

Additional observations from a re-analysis of the deposited data

Results flagged for a closer look

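At the upstream RPS regions the median change with rapamycin was below 0 for Tau95, at -0.32 (n = 24). It was above 0 for Bdp1 at 0.0318 (n = 25), Brf1 at 0.16 (n = 23) and C160 at 0.0399 (n = 24). Other C regions had 0.12 for Tau95, 0.0674 for Bdp1, 0.0362 for Brf1 and 0.1139 for C160. Against those, Bdp1 and C160 were also lower at the upstream RPS regions, and only Brf1 was higher. Each protein has 1 array per time, so the differences were not tested, and the values of Bdp1 and C160 are close to 0. With the arrays brought to equal spread all 4 medians were below 0, at -0.35 for Tau95, -0.0561 for C160, -0.28 for Brf1 and -0.0029 for Bdp1, so the opposite signs were not found on that scale. Centring on all features gave -0.43 for Tau95, -0.0364 for C160, 0.0554 for Brf1 and 0.0093 for Bdp1, so that Brf1 and Bdp1 kept the sign opposite to Tau95 and C160 did not. The Brf1 array at 30 min lacked 639 features, and its part in the result was not tested.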

How the results depend on the processing

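No paired analysis was possible because each protein and time has 1 deposited array. Of 236 values under alternatives, 175 moved by less than the tolerance, 52 moved further with the same sign and 9 moved further with a change of sign. Of the 175, 6 near 0 also changed sign: the C160 median change (-0.0615 after centring on all features, -0.0743 with equal spread), the upstream C160 change (-0.0364 and -0.0561), the upstream Bdp1 change (-0.0029 with equal spread) and the Bdp1 level at 30 min (0.0657 over regions with values on all 8 arrays). Of the 175, 32 came from averaging the features of a gene and could not move, since no RPS region has a numbered feature. Centring shifts all regions of an array alike, so the differences between upstream and downstream regions could not move under it either. The 175 is therefore no measure of how stable the results are. The causes were not tested. With arrays centred on RPL features, the RPS median change was -0.32 for Bdp1 and 0.0289 for Tau95, the median level was -0.32, -0.31 and -0.24 for Brf1, C160 and Tau95 at 0 min and -0.31, -0.43 and -0.22 for Bdp1, Brf1 and Tau95 at 30 min, and 4 regions were lower by 2-fold for Bdp1, 3 higher for Brf1 and 0 lower for Tau95. Centring on all features gave a median change of -0.29 for Brf1 and -0.27 for Tau95, and upstream 0.0554 and -0.43. The level at 30 min was -0.12 for Bdp1 and -0.22 for Tau95, the upstream Tau95 excess at 30 min 0.0034, and 3 regions were higher for Brf1, 2 lower for C160, and 1 higher and 5 lower for Tau95. With equal spread, the Tau95 median change was -0.30, the upstream Brf1 change -0.28, and the upstream minus downstream Brf1 change -0.0725. That difference in level was 1.12 for Bdp1 at 30 min and 1.02 and 0.92 for Brf1 and C160 at 0 min, the level was -0.0918 for C160 at 0 min and -0.17 for Tau95 at 30 min, and the upstream Tau95 excess at 0 min was 0.35. The gap between the 2 sides of a gene was 0.70 for Bdp1 at 30 min and 0.67 for Brf1 at 0 min, and 1 region was higher and 4 lower for Brf1, 2 lower for C160, and 1 higher and 4 lower for Tau95. At a limit of 1.5-fold, 3 were higher and 5 lower for Bdp1, 9 and 11 for Brf1, 3 and 6 for C160, and 7 and 9 for Tau95. Shares of all features were computed only at 2-fold and on the arrays as deposited. The counts at 1.5-fold and on the other scales therefore have no background beside them, and nothing on RPS genes is read from them. With regions classed by any promoter, the difference in change was -0.42 for Tau95, -0.10 for C160, -0.18 for Brf1 and -0.0092 for Bdp1, and that in level 1.06 for Bdp1 and 0.66 for C160 at 0 min. Over regions with values on all 8 arrays, the level was 0.35 for Tau95, -0.0842 for C160 and 0.0199 for Brf1 at 0 min and 0.0623, -0.0253 and -0.10 at 30 min, and the upstream minus downstream level at 30 min was 0.80 for Brf1 and 0.91 for Tau95. Without the region next to a tRNA gene, that difference was 0.90 for C160 at 0 min. A spot's brightness was not separated from its copy number, and missing values limit Brf1 at 30 min most.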
